A study of Drosophila melanogaster with 2 samples.

Results

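Peaks at divergent promoters are ChIP-seq peaks whose summit, the base of highest enrichment within the peak, lay close to the start sites of 2 genes that are transcribed away from each other. A peak was counted as such where a minus-strand and a plus-strand transcription start site (TSS) both lay within 500 bp of the summit, belonging to 2 different protein-coding genes, with the minus-strand TSS at the lower coordinate. By this rule 719 of the 5115 peaks on the chromosome arms (14.1%, exact 95% interval 13.1 to 15) were divergent promoter peaks, in a list of 5116 peaks in all. With 250 bp in place of 500 bp the share was 8.41%. The rule uses positions alone, so the height, replication and sequence of the peaks were free to vary. The 719 peaks lay at 682 pairs of genes, or 1364 genes, with 1 peak at 646 pairs and 2 or 3 at the other 36. They are compared below with 1422 other promoter peaks, whose summit was within 500 bp of a protein-coding TSS but not of a head-to-head pair, and with 2974 peaks away from promoters.

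The data were from Drosophila melanogaster embryos of the strain CG14441-GFP, which carries CG14441 fused to the fluorescent protein eGFP, taken whole at 0 to 24 h of age. Chromatin bound to the fusion protein was recovered with an antibody against GFP, although the antibody field of the labels names CG14441, and the lists were made against a control alignment that was not analysed here. There was 1 group with 2 biological replicates, and no untagged or mutant group, so no comparison between conditions could be made. The embryos span all of embryogenesis and all tissues, so each peak is an average over cell types, and no measurement here shows in which cells the fusion protein was present. The deposited lists give a signal for each peak on a scale that is not stated. They hold no read counts, and the depth of the libraries is therefore unknown. The intervals given here are exact Clopper-Pearson intervals at 95%, and cover counting error only.

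Head-to-head gene pairs are common in the compact fly genome, and the short stretch between their start sites serves as the promoter of both genes. In flies many such promoters drive housekeeping genes, which are active in most cells, and carry core promoter elements such as the DNA replication-related element (DRE), bound by DREF, and Motif 1, bound by M1BP, in place of a TATA box. Promoter DNA upstream of such start sites is typically rich in A and T and free of nucleosomes. The labels give no function for CG14441.

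The sequences between the start sites of 5 of the strongest pairs, those with a summit in an exon-free space of 40 to 300 bases, show where the summit stood between the genes. Each runs 5′ to 3′ on the plus strand of dm6 from the base after the minus-strand TSS to the base before the plus-strand TSS, and none holds an annotated exon. Capitals mark the summit and 20 bases on each side of it.
CG7601/CIA30, chr3R:29736746-29736964: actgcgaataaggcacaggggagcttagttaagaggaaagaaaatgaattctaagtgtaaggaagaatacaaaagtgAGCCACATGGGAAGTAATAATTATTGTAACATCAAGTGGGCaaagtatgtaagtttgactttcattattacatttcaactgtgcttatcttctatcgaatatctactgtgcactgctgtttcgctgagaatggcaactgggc
Tcs5/CHMP2B, chr3L:5139396-5139618: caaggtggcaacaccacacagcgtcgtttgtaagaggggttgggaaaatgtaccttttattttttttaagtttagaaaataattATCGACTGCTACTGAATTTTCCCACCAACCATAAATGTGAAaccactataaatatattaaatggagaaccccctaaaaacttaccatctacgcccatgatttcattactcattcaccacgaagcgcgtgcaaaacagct
Art3/mRpS10, chr3R:15229409-15229664: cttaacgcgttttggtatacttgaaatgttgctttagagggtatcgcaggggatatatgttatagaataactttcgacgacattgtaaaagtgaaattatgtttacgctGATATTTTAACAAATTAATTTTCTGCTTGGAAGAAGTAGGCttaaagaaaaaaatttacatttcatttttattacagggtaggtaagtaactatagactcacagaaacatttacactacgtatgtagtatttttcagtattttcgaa
Atat/Shc, chr3L:9426759-9427009: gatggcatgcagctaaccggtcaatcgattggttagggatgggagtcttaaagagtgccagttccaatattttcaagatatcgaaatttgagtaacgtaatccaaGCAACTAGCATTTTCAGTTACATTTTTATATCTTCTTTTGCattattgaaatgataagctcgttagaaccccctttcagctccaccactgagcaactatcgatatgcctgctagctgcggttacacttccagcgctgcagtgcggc
fws/Lamtor3, chr2L:17481030-17481230: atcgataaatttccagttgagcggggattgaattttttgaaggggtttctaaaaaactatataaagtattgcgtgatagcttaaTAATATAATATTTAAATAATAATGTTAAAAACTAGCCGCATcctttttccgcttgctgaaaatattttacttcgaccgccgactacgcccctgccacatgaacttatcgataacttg
A and T made up 61.0% of the capital bases at CG7601/CIA30, 61.0% at Tcs5/CHMP2B, 70.7% at Art3/mRpS10, 70.7% at Atat/Shc and 82.9% at fws/Lamtor3. Over the whole stretch it was 62.1%, 61.9%, 69.9%, 57.0% and 65.7% in the same order, so the bases at the summit were richer in A and T than the rest at Atat/Shc and fws/Lamtor3 and about equal to it at the other pairs. The letters TATCGATA of the DRE stand in lower case in the last 2 sequences, 43 bp from the Shc start site and 6 bp from that of Lamtor3, and not under the summit.

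The next sequences, drawn and oriented the same way, show promoter elements that recurred between divergent start sites. Here capitals mark elements that lie at least in part within 100 bp of the summit. They are Ohler Motif 7 at CG10147/Bulli, the DRE at Ttc1/CG14882, and the core of Motif 1, written on the minus strand, at fs(1)h/mys.
CG10147/Bulli, chr3L:6488425-6488680: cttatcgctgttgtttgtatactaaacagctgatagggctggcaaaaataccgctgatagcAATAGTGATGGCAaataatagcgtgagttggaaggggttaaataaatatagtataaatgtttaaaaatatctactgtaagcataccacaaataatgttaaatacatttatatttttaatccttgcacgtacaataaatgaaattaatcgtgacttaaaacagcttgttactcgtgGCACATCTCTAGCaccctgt
Ttc1/CG14882, chr3R:16443008-16443206: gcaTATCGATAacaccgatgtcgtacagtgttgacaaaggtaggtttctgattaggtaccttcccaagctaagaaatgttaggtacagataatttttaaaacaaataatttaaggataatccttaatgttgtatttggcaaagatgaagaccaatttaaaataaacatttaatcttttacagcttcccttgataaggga
fs(1)h/mys, chrX:8061437-8061644: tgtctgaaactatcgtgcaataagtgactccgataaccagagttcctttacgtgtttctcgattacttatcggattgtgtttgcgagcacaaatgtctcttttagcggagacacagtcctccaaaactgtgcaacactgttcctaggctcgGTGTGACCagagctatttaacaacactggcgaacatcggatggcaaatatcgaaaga
At CG10147/Bulli, where the summit was 165 bp upstream of CG10147 and 92 bp upstream of Bulli, the marked Motif 7 sites lay 62 bp from the CG10147 start and 8 bp from the Bulli start, and a further one, in lower case, lay 32 bp from the CG10147 start. At Ttc1/CG14882 the summit was 106 bp upstream of Ttc1 and 94 bp upstream of CG14882, and the DRE lay 4 bp from the Ttc1 start. At fs(1)h/mys, where fs(1)h encodes a BET bromodomain protein and mys an integrin, the summit was 159 bp upstream of fs(1)h and 50 bp upstream of mys, and the Motif 1 core lay 50 bp from the mys start. The series signals of these peaks were 715, 325 and 129, in the order of the sequences.

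Several of the strongest divergent promoter peaks had their summit upstream of both genes, about as far from one start site as from the other. The highest was at CG7601/CIA30, where CIA30 is an assembly factor of respiratory complex I. Its signal was 1296 in replicate 1 and 1057 in replicate 2 (mean 1176 ± 169, SD, n = 2), and the summit, at base 29736843 of chromosome arm 3R, lay 98 bp from the CG7601 start and 122 bp from the CIA30 start. Tcs5/CHMP2B, which joins the kinase of the tRNA-modifying KEOPS complex to a subunit of the membrane-cutting ESCRT-III complex, had 1239 in replicate 1 and 917 in replicate 2, with its summit 105 and 119 bp from the start sites. Replicate 1 was the higher at both of these pairs. Art3/mRpS10, an arginine methyltransferase and a protein of the small mitochondrial ribosomal subunit, had 1069 and 833 in replicates 1 and 2, with start sites 130 and 127 bp away. Atat/Shc, the alpha-tubulin acetyltransferase and an adaptor of receptor tyrosine kinases, had 1037 and 588 in replicates 1 and 2, with both start sites 126 bp away. fws/Lamtor3, a subunit of the Golgi-tethering COG complex and a subunit of the lysosomal Ragulator complex, had 731 and 704 in replicates 1 and 2, with start sites 105 and 97 bp away. Among these pairs the replicates were closest at fws/Lamtor3 (mean 717 ± 19.1, SD, n = 2) and furthest apart at Atat/Shc (813 ± 318, SD, n = 2).

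Some strong peaks were far from the middle or outside the space between the start sites. At mRpS23/CenG1A, a mitochondrial ribosomal protein gene and a gene for an Arf GTPase-activating protein, the start sites were 492 bp apart. The signals there were 1080 and 979 in replicates 1 and 2, and the summit was 95 bp upstream of CenG1A but 397 bp upstream of mRpS23. At Chro/Ssl1, which pairs the chromodomain protein Chromator with a subunit of the general factor TFIIH, the start sites were 105 bp apart and the summit lay 86 bp inside the Chro transcript and 191 bp upstream of Ssl1, with signals of 1031 and 776 in replicates 1 and 2. At mRpL23/CG9004 they were 50 bp apart, and the summit lay 80 bp inside mRpL23 and 130 bp upstream of CG9004, with signals of 962 and 730. The same held at Pex11ab/CG8320, where Pex11ab is a peroxisome gene: the start sites were 33 bp apart, and the summit lay 122 bp upstream of Pex11ab and 89 bp inside CG8320, with signals of 886 and 720. At CG1275/Elp5, where Elp5 is a subunit of Elongator, the start sites were also 33 bp apart, and the summit lay 95 bp upstream of CG1275 and 62 bp inside Elp5, with signals of 719 and 668.

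Among the 25 strongest pairs found in both replicates, 19 had the summit between the start sites. In 22 of the 25, at least 1 of the start sites lay 75 to 150 bp downstream of the summit, and in 7 both did. Over all 719 members these shares were 51.6% and 11.0%, and the band was chosen after the values were seen. Of the 7 pairs with start sites at most 200 bp apart, 2 had the summit between them. The series signals of these 25 peaks ran from 904 to 2310, and the SD of the replicates was 2.67% to 39.1% of their mean, with a median of 14.1%. Replicate 1 was the higher in 23 of 25. The exceptions were tank/CG12194, with 638 in replicate 1 and 720 in replicate 2, and ND-ASHI/Fum1, a complex I subunit and fumarase, with 524 and 545. Other pairs in this group included brm/Arl1, the ATPase of the SWI/SNF remodelling complex and a Golgi GTPase, with 661 and 504 in replicates 1 and 2, Mppe/pds5, of which pds5 encodes a cohesin cofactor, with 568 and 392, and CG13933/PolD2, of which PolD2 encodes a subunit of DNA polymerase delta, with 498 and 407. The plot of the replicate signals shows all 25.

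**Figure D1:**
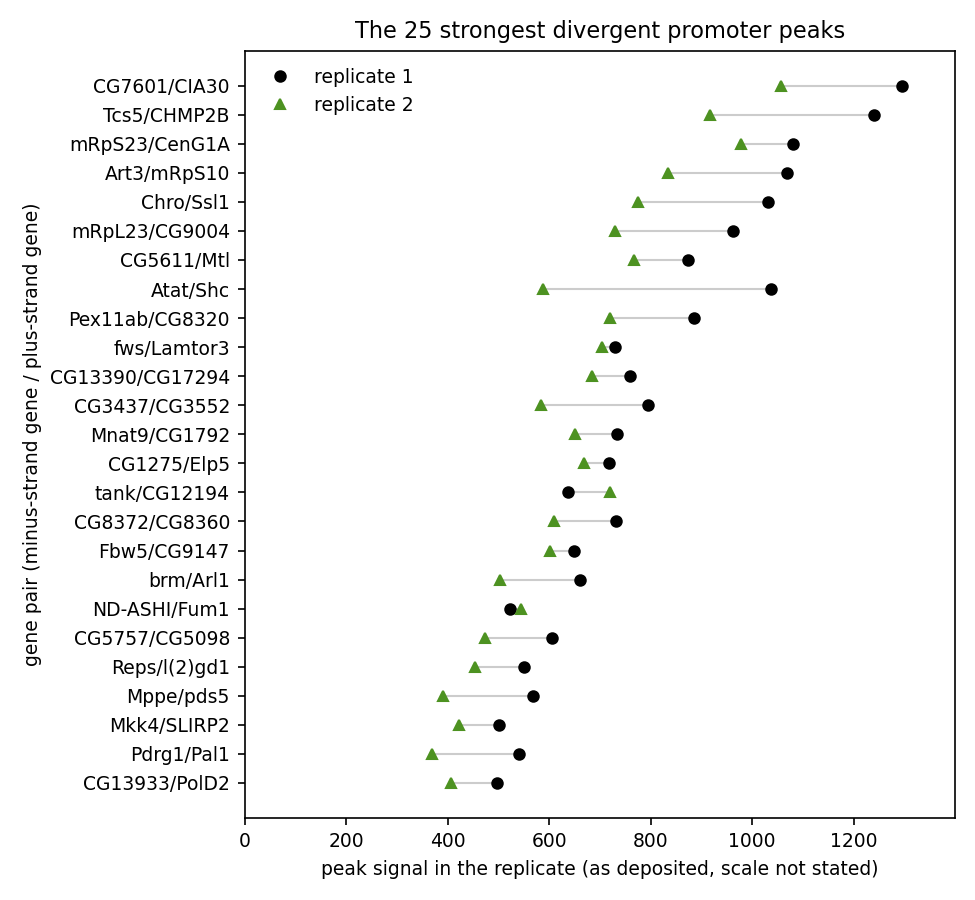
Peak signal (horizontal axis, as deposited, scale not stated) in replicate 1 (circles) and replicate 2 (triangles) at the 25 strongest divergent promoter peaks, ordered from the top by the signal of the series list. Replicate 1 lay to the right of replicate 2 at 23 of the 25 pairs.

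The weakest members lay under stronger peaks. The 5 with the lowest series signal, from 2.25 at CG8187/Vha36-1 to 5.10 at Pex16/Pex14, were all overlapped by a stronger peak of the same list. The others were mus302/CG9705 at 3.46, CG5823/P5cr-2 at 4.80 and CG9662/Ptpa at 4.93, and Pex16 and Pex14 are both peroxisome biogenesis genes. They have no replicate signals of their own, since the ranked list gives each of them the same peak of replicate 1 and of replicate 2 as a stronger series peak, whose series signals ran from 84.5 to 185. In all, 29 of the 719 members (4.03%) were overlapped by a stronger peak, against 3.52% of other promoter peaks.

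The values at the 500 bp limit are given as a description. The 5 members nearest the limit had their farther start site 486 to 499 bp from the summit. Their series signals were 102 and 162 for the 2 peaks at beta4GalNAcTB/Cpsf100, 78.3 at vari/CG9328, 1359 at tank/CG12194 and 72.2 at CG44088/atms. The 5 peaks just outside had it at 502 to 507 bp, with signals of 143 at CCT8/CG30349, 102 at CG10435/Pbp95, 112 at cue/Psa, 22.3 at RNF220/CG45049, which a stronger peak overlapped, and 108 at CG42724/CG10286.

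Divergent promoter peaks were stronger than other promoter peaks, though the distributions overlapped widely. The median series signal was 152 (quartiles 96.7 and 267) at divergent promoters, 123 (quartiles 85.0 and 219) at other promoters and 108 away from promoters. The same order held in replicate 1, with medians of 85.3 at divergent promoters, 65.4 at other promoters and 56.9 away from promoters, and in replicate 2, with 69.9, 62.1 and 54.1. The ratio of the divergent to the other promoter median was 1.30 in replicate 1 and 1.13 in replicate 2 (mean 1.22 ± 0.126, SD, n = 2). These are replicate signals at the series peaks. In each replicate's own list divergent promoter peaks again had the higher median, with a ratio of 1.12 in replicate 1 and 1.18 in replicate 2. There the larger ratio was that of replicate 2. With 2 replicates an exact two-sided test of this ratio cannot give a p under 0.5, so none was run. Divergent promoter peaks made up 124 of the 511 strongest peaks (24.3%, 20.6 to 28.2) and 52 of the 512 weakest (10.2%, 7.68 to 13.1). Their share of the promoter peaks alone was 40% among the 511 strongest and 28.7% among the 512 weakest. The strongest peak of the list was not among them, at 2310 for the highest member against 3245 for the highest other promoter peak.

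The excess of replicate 1 over replicate 2 differed between the classes. Where both values were known, replicate 1 gave the higher signal at 545 of 717 divergent promoter peaks (76.0%) and at 59.9% of other promoter peaks. The median ratio of replicate 1 to replicate 2 was 1.21 at divergent and 1.07 at other promoters. Across the 717 peaks the replicate signals had a Spearman correlation of 0.861, a description of peaks that share their libraries. A thresholded peak was found in both replicates at 477 of the 719 divergent promoter peaks (66.3%, 62.8 to 69.8), at 58.6% (56.0 to 61.2) of other promoter peaks and at 51.2% away from promoters. The share over all peaks was 55.4%. A further 111 divergent promoter peaks overlapped a peak of replicate 1 alone, 49 a peak of replicate 2 alone and 82 neither. At other promoters the numbers were 151, 176 and 261. For 29 divergent promoter peaks and 50 other promoter peaks, a replicate value was that of a replicate peak also given to a stronger series peak. Without them, replicate 1 was the higher at 524 of 688 divergent promoter peaks (76.2%) and at 59.9% of other promoter peaks. The part of signal or sequencing depth in these differences was not tested.

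Most divergent promoter summits lay in the space between the 2 genes. Of the 719, 592 (82.3%) were between the start sites, 73 were inside the minus-strand gene and 54 inside the plus-strand gene. This describes positions that the rule itself used: at pairs over 500 bp apart a member can only lie between the start sites, and at closer pairs the room outside them shrinks as the distance grows. The start sites were a median of 292 bp apart (quartiles 220 and 394.5, range 2 to 857). The nearer one was a median of 86 bp from the summit and the farther one 210 bp. Summits between start sites were off the midpoint by a median of 55 bp. A TSS of any transcript lay 75 to 150 bp downstream of 58.0% of divergent promoter summits and of 21.3% of other promoter summits, a comparison in which divergent promoters have start sites on both sides to offer. By the nearest start site alone the shares were 41.9% and 19.2%. That site was the nearer of the assigned pair at divergent promoters and the nearest of any transcript at other promoters.

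Position went with strength. Both start sites lay 75 to 150 bp away in 38 of the 179 strongest members (21.2%, 15.5 to 28.0) and in 41 of the other 540 (7.59%, 5.50 to 10.2). The strongest members had start sites a median of 259 bp apart and the others 305.5 bp. The share with the summit between the start sites was nearly equal, at 82.7% of the strongest and 82.2% of the others. The band of 75 to 150 bp was chosen after the values were seen, so these numbers describe and do not test.

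**Figure D2:**
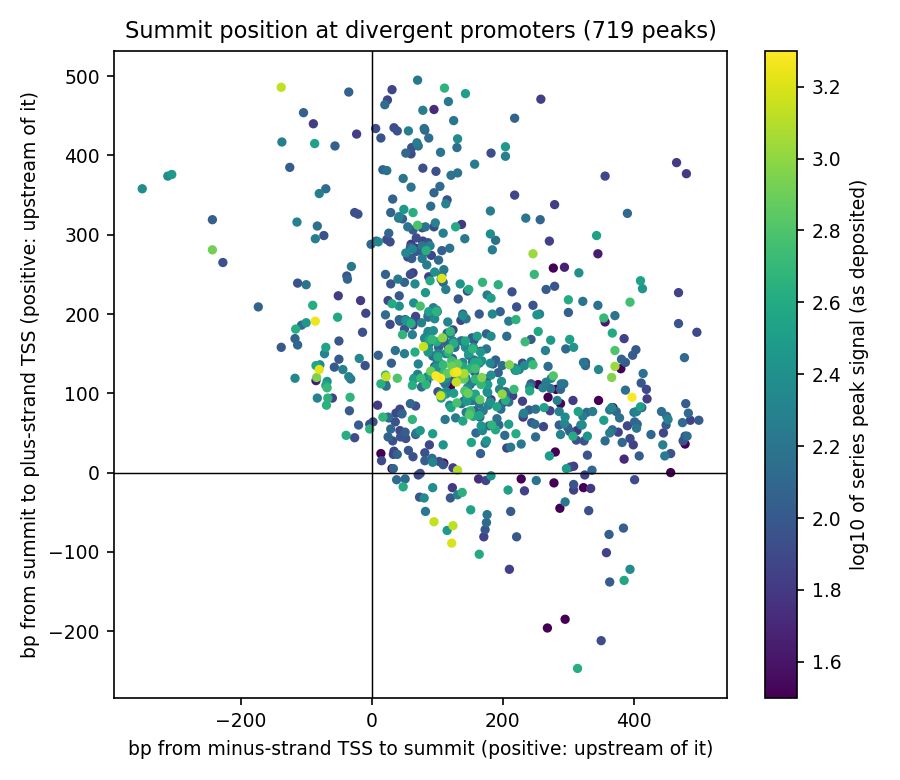
Position of each of the 719 divergent promoter summits, as bp from the minus-strand TSS (horizontal axis) and to the plus-strand TSS (vertical axis), coloured by log10 of the series signal. Points right of and above the zero lines lie upstream of both genes, as 592 of the 719 did. Both distances were 75 to 150 bp at 38 of the 179 strongest members and at 41 of the other 540.

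The main pattern was seen from the side of the gene pairs. The annotation holds 2667 head-to-head pairs of protein-coding genes with start sites at most 1000 bp apart, of which 682 (25.6%) were the pair of a divergent promoter peak. A series summit lay between the start sites of 24.6% of all these pairs and within 100 bp of their midpoint in 17.9%. The second share depended on the distance between the start sites in a stepwise manner. It was 13.3% for pairs 1 to 50 bp apart, 13.7% for 51 to 100 bp, 15.4% for 101 to 150 bp and 14.1% for 151 to 200 bp. It was 39.7% for pairs 201 to 250 bp apart, 33.3% for 251 to 300 bp and 35.4% for 301 to 350 bp, then 19.5% for 351 to 400 bp and 10.5% for 401 to 500 bp. In sum, pairs 201 to 350 bp apart had a central summit in 276 of 768 cases (35.9%, 32.5 to 39.4), and pairs at most 200 bp apart in 111 of 786 (14.1%, 11.8 to 16.8).

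The step was present in each replicate's own list. In replicate 1 a central summit was found at 36.7% of pairs 201 to 350 bp apart and at 9.67% of closer pairs. In replicate 2 the shares were 29.4% and 11.3%. The ratio of the shares was 2.54 in the series list, 3.80 in replicate 1, 2.60 in replicate 2 and 4.07 in the upper 50% of the series peaks by signal. The window around the midpoint was the same length for every pair, and the step also remained when any summit from 500 bp outside one start site to 500 bp outside the other was counted, at 44.1% of pairs 201 to 350 bp apart and 25.6% of closer ones. For wider pairs the fixed central window covers less of the space, and a summit anywhere between the start sites was found at 30.6% of pairs 351 to 500 bp apart and 23.8% of those 501 to 1000 bp apart. Before thresholding the step in presence was smaller. In replicate 1 a candidate was found at the midpoint of 52.5% of pairs 201 to 350 bp apart and of 35.1% of closer pairs. In replicate 2 the shares were 51.3% and 45.3%. Among pairs with a candidate, the median of the highest signal at the midpoint was 74.6 in replicate 1 and 61.8 in replicate 2 for pairs 201 to 350 bp apart. For closer pairs it was 28.7 and 26.3. These separation classes were drawn after the values were seen.

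**Figure D3:**
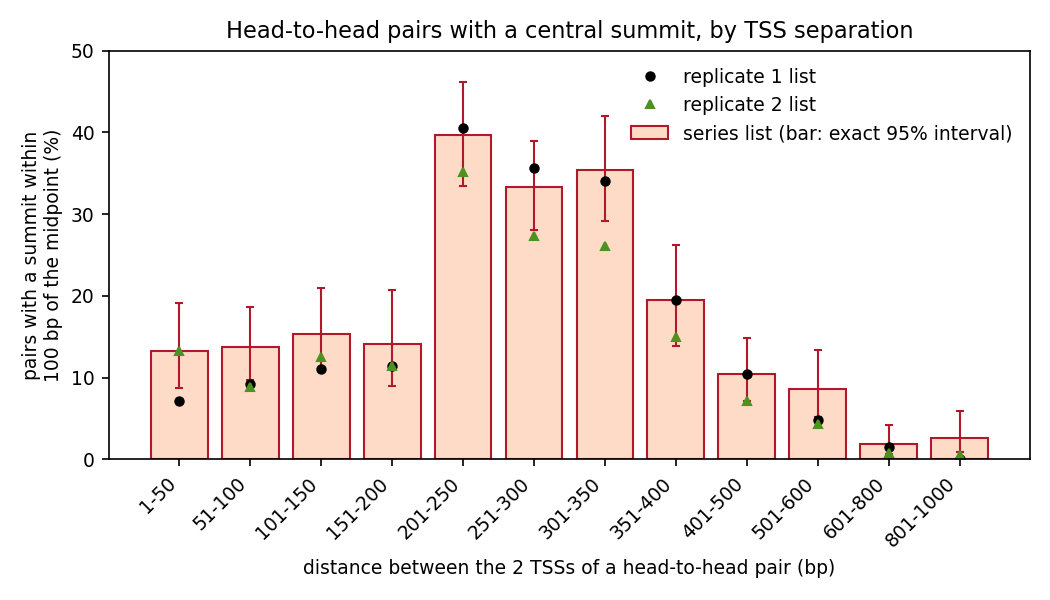
Percent of head-to-head gene pairs (vertical axis) with a peak summit within 100 bp of the midpoint, by the distance between the 2 start sites (horizontal axis, bp), in the series list (bars with exact 95% intervals), replicate 1 (circles) and replicate 2 (triangles). The share is at most 15.4% in the series list up to 200 bp and at least 33.3% from 201 to 350 bp.

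Base composition changed at the same distance. Within 50 bp of the midpoint the median content of G and C was 44.6% for pairs 1 to 50 bp apart, 44.6% for 51 to 100 bp, 42.1% for 101 to 150 bp and 36.6% for 151 to 200 bp. It was 25.7% for pairs 201 to 250 bp apart, 26.7% for 251 to 300 bp and 27.7% for 301 to 350 bp, and it was also 27.7% at 351 to 400 and at 401 to 500 bp. For pairs closer than about 100 bp this window reaches into the genes. Among pairs with under 30% G and C at the midpoint, a central summit was found at 225 of 543 pairs 201 to 350 bp apart (41.4%, 37.3 to 45.7), at 15 of 88 closer pairs (17%, 9.87 to 26.6) and at 43 of 271 pairs 351 to 500 bp apart (15.9%, 11.7 to 20.8). The same contrast was 42.7% against 19.3% of closer pairs in replicate 1, and 34.4% against 13.6% in replicate 2. Among pairs with 30% to under 40%, it was 28.1% (21.3 to 35.8) of 160 pairs 201 to 350 bp apart and 13.4% (9.0 to 18.8) of 202 closer pairs. Among pairs with 40% or more, it was 9.23% (3.46 to 19) of 65 pairs 201 to 350 bp apart and 13.9% (11.0 to 17.3) of 496 closer pairs. The intervals of the 2 distances were apart in the lower classes of G and C and overlapped in the highest. Whether composition, annotated distance or another property of these promoters accounts for it was not tested.

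Within the divergent promoter peaks, signal also varied with the distance between start sites. The share of summits between them is given with it as a description, since the rule leaves less room outside wider pairs and none beyond 500 bp. Of the 154 peaks at pairs at most 200 bp apart, 44.2% had the summit between the start sites, and their median signal was 127. The 316 peaks at pairs 201 to 350 bp apart had the summit between them in 88.9% and a median signal of 180. For 171 peaks at pairs 351 to 500 bp apart these values were 96.5% and 141, and for 78 peaks at wider pairs 100% and 128. The signal quartiles were 87.9 and 307 at pairs at most 200 bp apart, and 107 and 316 at 201 to 350 bp. The upper quartiles of these classes were thus close. The order of the first pair of classes was the same in replicate 1, with medians of 99.2 for 201 to 350 bp and 72.1 for closer pairs, and in replicate 2, with 78.3 and 64.9. Peaks at pairs 201 to 350 bp apart were found in both replicates in 70.9%, against 60.4% at closer pairs. Replicate 1 was the higher in 81.6% of the peaks at pairs 201 to 350 bp apart and in 70.6% at closer pairs. At the 351 to 500 bp pairs the summit was a median of 83 bp from the nearer start site (quartiles 56 and 131). Summits between those start sites were a median of 114 bp off the midpoint. Whether these distances differ from those of summits spread evenly between the start sites was not tested.

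Divergent genes were also bound more often than genes without a head-to-head neighbour. Of 5052 protein-coding genes with a head-to-head protein-coding partner within 1000 bp, 1671 (33.1%, 31.8 to 34.4) had a series summit within 500 bp of a TSS. Among the 8893 other protein-coding genes, 966 (10.9%, 10.2 to 11.5) did, and the share over all protein-coding genes was 18.9%. The ratio of the shares was 3.04 in the series list, 3.55 in the list of replicate 1 and 2.77 in that of replicate 2. A summit at a divergent promoter can count for both genes of the pair, which raises the share of divergent genes by construction.

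By chromosome arm, pairs on X were bound less often than pairs on the large autosomal arms. A divergent promoter peak was found at 77 of 403 pairs on X (19.1%, 15.4 to 23.3), against 28.8% of pairs on 3L, 28.1% on 3R, 27.7% on 2L and 22.7% on 2R. The interval on X overlapped that on 2R (19.2 to 26.4). X held 11.1% of the divergent promoter peaks but 19.6% of all peaks, and their median signal was 120 there, against 178 on 3L. None of the 11 pairs on chromosome 4 had such a peak, which allows a share of up to 28.5%. CG14441, at bases 6699508 to 6719389 of the plus strand of X in dm6, is itself head to head with CG14440, with start sites 941 bp apart. A series summit lay within 500 bp of a CG14441 start site, but not within 500 bp of both genes, so the pair is not a member.

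Gene lists, compiled with earlier results of these data known, show which housekeeping machines the bound pairs serve. As background, 1364 of 5052 divergent genes (27%) belonged to a pair with a divergent promoter peak, and the median signal over all such pairs was 158. Counts near that share are no result about a list. Genes for cytoplasmic ribosomal proteins and aminoacyl-tRNA synthetases stood above it by their intervals, which make no allowance for the number of lists. Of 53 divergent genes for cytoplasmic ribosomal proteins, 25 had such a peak (47.2%, 33.3 to 61.4). Their median signal was 179. The strongest were RpS27/Nup37, with 252 and 220 in replicates 1 and 2, RpL34b/CG8132, with 256 and 202, and Ripalpha/RpL7, with 211 and 193. Of the 33 cytoplasmic ribosomal protein genes without a head-to-head partner, 18 (54.5%) had a promoter summit as well. A high share was therefore not particular to the divergent genes of this list. Of 58 divergent mitochondrial ribosomal protein genes, 21 had a divergent promoter peak (36.2%, 24.0 to 49.9), led by mRpS23, mRpS10 and mRpL23 as given above. None of the 15 others had a promoter summit. Of 22 divergent aminoacyl-tRNA synthetase genes, which charge tRNAs with amino acids, 11 did (50%, 28.2 to 71.8), led by GluProRS/AP-1sigma with 357 and 227 in replicates 1 and 2, SerRS/CG17260 with 249 and 162 and Hem/IleRS with 173 and 153. Their median signal was 112, below that of all pairs, and none of the 10 other synthetase genes had a promoter summit. Translation factors had 6 of 29 (20.7%, 7.99 to 39.7), led by RpL28/eIF1, with 111 and 159 in replicates 1 and 2. The lower bounds for cytoplasmic ribosomal proteins and synthetases were above 27%, and the intervals of the other lists with a peak included it. For synthetases the lower bound, 28.2%, was close to that share. No set test was run, so these intervals describe the lists and do not test them.

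Genes that handle RNA and transcription were near the background in number, and some had high peaks. For RNA polymerase II subunits, general factors, Mediator and Integrator, 16 of 52 divergent genes had a peak (30.8%, 18.7 to 45.1), with a median signal of 313 against 158 over all pairs. The strongest were Wdr24/IntS11, with 321 and 191 in replicates 1 and 2, elm/MED27, with 285 and 194, and CG11247/Polr2H, with 273 and 172. For splicing and RNA processing it was 15 of 45 (33.3%, 20 to 49.0), led by SNRPG/mthl1 with 275 and 228, and for tRNA modification 8 of 20 (40%, 19.1 to 63.9), led by Tcs5/CHMP2B, CG1275/Elp5 and Trmt6/Ent2. The last of these had 480 and 406 in replicates 1 and 2. Nucleoporins and nuclear transport had 9 of 26 (34.6%, 17.2 to 55.7), led by Hs2st/RanGAP with 303 and 189.

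Organelle and trafficking genes were spread about the background. Vesicle trafficking had 32 of 94 (34.0%, 24.6 to 44.5), led by Tcs5/CHMP2B, fws/Lamtor3 and brm/Arl1. Oxidative phosphorylation had 12 of 46 (26.1%, 14.3 to 41.1), led by ND-ASHI/Fum1, TppII/ND-MWFE with 281 and 196 in replicates 1 and 2, and wmd/levy with 233 and 108. The proteasome had 8 of 26 (30.8%, 14.3 to 51.8), led by l(2)37Bb/Rpn3 with 130 and 143, and mitochondrial import and assembly 4 of 14 (28.6%, 8.39 to 58.1), led by Ttc19/Acn with 135 and 97.5. DNA replication, repair and cell cycle genes had 14 of 59 (23.7%, 13.6 to 36.6), led by CG13933/PolD2 and SMC2/Ercc1, the second with 257 and 166.

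Chromatin proteins formed short lists. Of 10 divergent genes for insulator and architectural proteins, 5 had a divergent promoter peak (50%, 18.7 to 81.3). Besides Chro/Ssl1 these included Cp190/CG4338, for the insulator cofactor CP190, with 266 and 191 in replicates 1 and 2, and M1BP/CG8202, for the protein that binds Motif 1, with 94.1 and 80.9. Of 11 divergent Polycomb and Trithorax group genes, 4 did (36.4%, 10.9 to 69.2), among them brm/Arl1, E(z)/Cnep1r2, for the histone H3 methyltransferase of Polycomb repressive complex 2, with 286 and 148, and Su(z)12/Pfdn6, for another subunit of that complex, with 112 and 81.4. Lists of developmental and tissue-restricted genes had none. Of 27 segmentation and Hox genes, 0 had a head-to-head partner, and 3 had a promoter summit. Of 16 divergent odorant and gustatory receptor genes and 13 divergent cuticular protein genes, 0 had a divergent promoter peak, which allows shares of up to 20.6% and 24.7%.

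Divergent promoter summits lay in a deep dip of G and C between flanks richer in them. Within 25 bp of the summit the median content of G and C was 31.4% at divergent promoters, 35.3% at other promoters and 33.3% away from promoters. From 401 to 500 bp away it was 49.5%, 43.0% and 41.5%. By the rule, flanks at this distance mostly lie inside the 2 genes of a divergent pair.

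**Figure D4:**
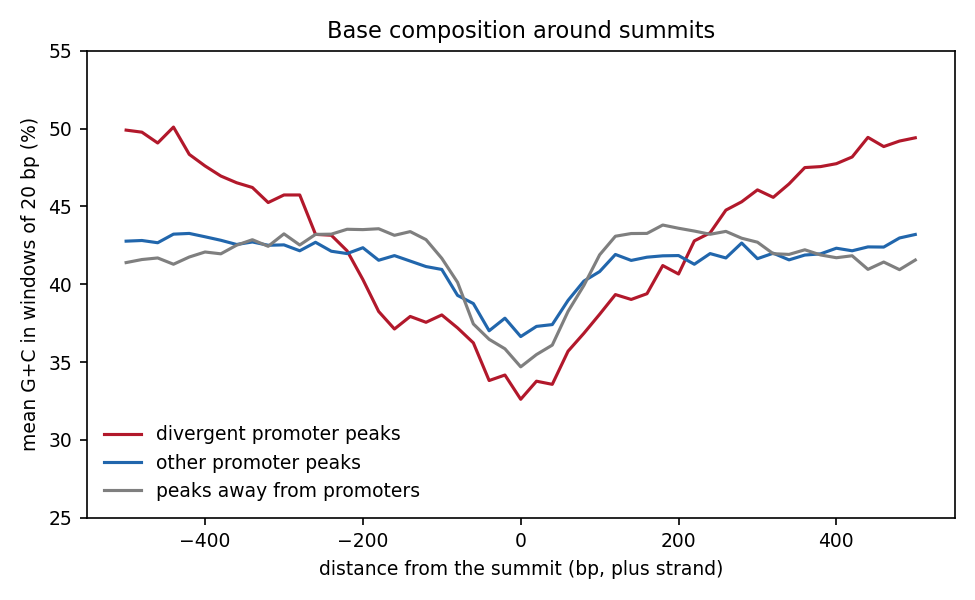
Mean G and C content (vertical axis, %, windows of 20 bp) by distance from the summit (horizontal axis, bp) for divergent promoter peaks, other promoter peaks and peaks away from promoters. All curves dip at the summit, and the divergent curve is lowest there and highest beyond about 300 bp.

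Promoter elements known from housekeeping genes were found more often at divergent than at other promoter summits. Each was searched on both strands within 100 bp of the summit, and a match describes the letters and not a bound factor. Ohler Motif 7, a core promoter element with no factor assigned here, was found by its consensus at 125 of 719 divergent promoter peaks (17.4%, 14.7 to 20.4), at 7.03% (5.76 to 8.49) of other promoter peaks and at 1.85% of peaks away from promoters. In windows of the same length it was present at 7.35% of the midpoints of all 2667 head-to-head pairs and at 6.80% of 19252 protein-coding start sites, although windows at midpoints and at summits differ in their distance to the start sites. The DRE, TATCGATA, was found at 81 divergent promoter peaks (11.3%, 9.05 to 13.8), at 4.50% (3.48 to 5.71) of other promoter peaks and at 0.235% away from promoters, with 8.55% of pair midpoints and 6.45% of start sites. CGATA, the letters bound by the insulator protein BEAF-32 and part of every DRE, was found at 46.5% and 31.4% of divergent and other promoter peaks, with 41.3% of pair midpoints. The Motif 1 core, GGTCACAC, was found at 6.40% (4.72 to 8.44) and 2.81% (2.02 to 3.81) of divergent and other promoter peaks, and at 5.40% of pair midpoints. Ohler Motif 6 was found at 1.81% and 0.422% of them, and at 2.29% of pair midpoints.

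Other elements differed in either direction. GAGAG, bound by GAGA factor, was found at 14.7% (12.2 to 17.5) of divergent and 24.2% (22.0 to 26.5) of other promoter peaks, and at 14.5% of pair midpoints. CAGGTAG, bound by the early embryonic activator Zelda, was found at 1 of 719 divergent promoter peaks (0.139%, up to 0.772%) and at 0.844% of others, with 0.787% of pair midpoints. The initiator letters TCAGT were found at 28.7% and 35.5% of divergent and other promoter peaks, with 31.4% of pair midpoints and 43.4% of start sites. GCCAT, the core bound by Pho, was found at 27.5% of each, with 25.4% of pair midpoints. TATAAA was found at 42.3% and 30.9%, with 39.8% of pair midpoints. Its letters are all A and T, and the divergent summits were the richer in those. The E-box CAGCTG was found at 14.3% (11.8 to 17.1) of divergent and 11.7% (10.1 to 13.5) of other promoter peaks, with overlapping intervals, and at 12.7% of pair midpoints.

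These contrasts with other promoters depended on the distance allowed to a start site. With 250 bp in place of 500 bp the ratio of divergent to other promoter share was 1.44 in place of 2.47 for Motif 7, 1.42 in place of 2.50 for the DRE and 1.14 in place of 2.27 for the Motif 1 core. With 1000 bp it was 4.25 for the DRE, and with 1 TSS per gene 1.23 for the Motif 1 core.

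**Figure D5:**
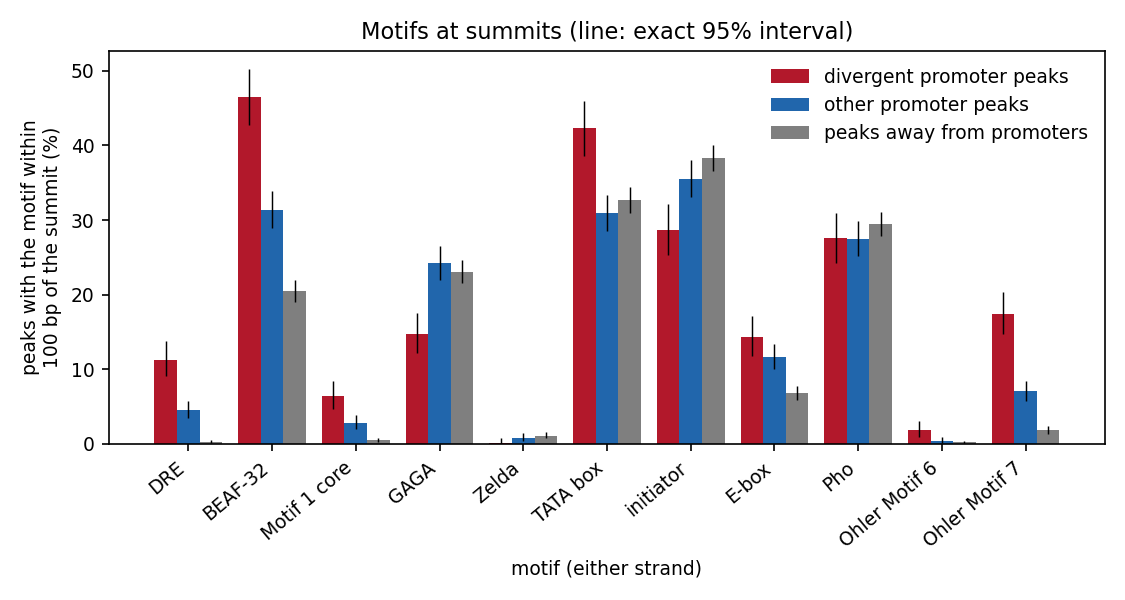
Percent of divergent promoter peaks, other promoter peaks and peaks away from promoters (vertical axis) with each element within 100 bp of the summit, with exact 95% intervals. Motif 7, the DRE, the BEAF-32 letters, the Motif 1 core, Motif 6, TATAAA and the E-box are most frequent at divergent promoters. The GAGA, initiator and Zelda letters are least frequent there. The intervals of divergent and other promoter peaks overlap for the E-box, the Zelda letters and the Pho core.

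Divergent promoter peaks with a housekeeping element had a lower median signal than those without. The median series signal was 131 for the 125 with Motif 7 and 155 for those without it, 134 for the 81 with a DRE and 155 for those without, and 110 for the 46 with the Motif 1 core and 156 for those without. The direction was the same in each replicate. For Motif 7 the medians with and without it were 73.1 and 88.5 in replicate 1, and 65.9 and 70.7 in replicate 2. For the DRE they were 69.4 and 87.0 in replicate 1, and 65.7 and 70.4 in replicate 2. For the Motif 1 core they were 59.2 and 88.6 in replicate 1, and 52.3 and 71.0 in replicate 2. The lower median was not particular to these elements: the series medians with and without the initiator letters were 134 and 156, and with and without the Pho core 147 and 155. It was not general either. With and without TATAAA the medians were 164 and 143, with and without GAGAG 150 and 153, and with and without the E-box 153 and 152. By distance between start sites, Motif 7 was found at 16.9% of peaks at pairs at most 200 bp apart, 16.8% at 201 to 350 bp, 21.1% at 351 to 500 bp and 12.8% beyond.

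At the midpoints of gene pairs of like distance, Motif 7 was more frequent with a divergent promoter peak than without in both distance classes, though the intervals overlapped. Among pairs 201 to 350 bp apart, the median G and C content at the midpoint was 25.7% for the 295 pairs with a divergent promoter peak and 27.7% for the 473 without. Motif 7 lay within 100 bp of the midpoint in 9.83% (6.68 to 13.8) of those with a peak and 4.65% (2.94 to 6.96) of those without, with intervals that overlap slightly, the DRE in 9.49% and 7.19%, and the Motif 1 core in 3.39% and 3.38%. Among pairs at most 200 bp apart, Motif 7 was found in 19.8% (14.3 to 26.2) of the 187 with a peak and 13.9% (11.2 to 16.9) of the 599 without, whereas the DRE was found in 13.9% and 20.4%, and the Motif 1 core in 10.2% and 15.2%.

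Short sequences searched without a prior list were led by runs of A and T. Counting both strands as 1, the 10 sequences of 7 bases that gained most within 50 bp of divergent promoter summits over the flanks 400 to 450 bp away were all made of A and T alone. AAAATAA led, at 20.3% of divergent promoter peaks against 4.45% in their flanks, with 13.5% of other promoter peaks and 14% of peaks away from promoters. Among sequences with 2 or more G or C, a limit chosen after the values were seen, ATCGATA led with 9.32% against 2.09% in the flanks, followed by CTATCGA with 7.37% and 1.95%, and AGTGTTG with 6.40% and 1.39%. At other promoter peaks the shares were 5.34%, 4.01% and 3.09% in the same order. ATCGATA lies within the DRE, and CTATCGA shares the letters TATCGA with it.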

How the data were processed

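The members, gene lists, motifs and comparisons were chosen with earlier results of these data known. The deposited files are peak lists made by the irreproducible discovery rate (IDR) procedure on assembly dm6, with replicate and control alignments as input, per the deposited descriptions. Which aligner and peak caller were used is not given in the sources used here. The signal is the value deposited by the authors for each peak, on a scale that is not stated, so levels were compared between peak classes within a list, and replicates only peak by peak or by ratios. The authors deposited the summit of each peak as an offset in bp (unit other) counted from where the peak begins. The stricter thresholded series list was used, with 5115 peaks on the arms, and the lists of replicates 1 and 2 held 3768 and 3939 there. The 2 samples form 1 group, and no comparison between groups was made. Replicate signals were read from the ranked series list and assigned by exact match of start, end and signal to each replicate's own ranked list, which can give 1 replicate peak to 2 series peaks.

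A TSS is the start of any transcript of a protein-coding gene in Ensembl release 115 (annotation version 6.54). A peak with several pairs was assigned the pair with the smallest sum of distances. Head-to-head pairs were described by their closest start sites. Peaks overlap when they share at least 1 bp. Sequence came from the RefSeq dm6 genome. Exact intervals treat peaks and genes as independent, although both genes of a pair share a peak. Named are CG14441, the 25 strongest members found in both replicates (1 per pair), the 5 weakest, those at the edge of the rule and the leading pairs of 18 gene lists. The assignment of summits to gene pairs and the overlap of peaks were tested on simulated data, and the other steps were not. Python 3.11.15, numpy 2.4.6, scipy 1.17.1 and matplotlib 3.10.9 were used.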

Additional observations from a re-analysis of the deposited data

How the results depend on the processing

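Under every alternative run, the ratios stayed above 1. The lowest was 1.04, for the signal ratio in the upper 50% of the peaks by signal. The shares and the median distance have no direction that could change. Results limited to 1 group of 2 replicates carry no test over samples, and the lists, which hold no read counts, give no limit by depth. The lowest and highest values with the list of 1 replicate alone were 13.9% and 17% for the share of peaks at divergent promoters, 1.12 and 1.18 for the signal ratio to other promoter peaks, 83.0% and 83.9% for summits between the start sites, 73.8% and 86.5% for peaks found in both replicates (here only the share overlapping the other replicate, so no range for the main value), 2.77 and 3.55 for the ratio of bound divergent to other genes, 282 and 290 bp for the distance between start sites, 2.20 and 2.46 for the DRE ratio, 2.05 and 2.48 for the Motif 1 core ratio, 2.43 and 2.63 for the Motif 7 ratio, and 2.60 and 3.80 for the ratio of pairs with a central summit (201 to 350 bp over at most 200 bp). In the upper 50% of the peaks by signal, the share at divergent promoters was 17.8%, the signal ratio 1.04, summits between start sites 85.3%, peaks found in both replicates 92.5%, the Motif 1 core ratio 1.58, the Motif 7 ratio 2.30 and the central-summit ratio 4.07. With a TSS window of 250 bp these were a share of 8.41%, a signal ratio of 1.42, both replicates 70.9%, a distance of 243 bp, a DRE ratio of 1.42, a Motif 1 core ratio of 1.14 and a Motif 7 ratio of 1.44. With 1000 bp they were a share of 18.7%, a signal ratio of 1.11, summits between start sites 78.3%, a distance of 343.5 bp, a DRE ratio of 4.25 and a Motif 7 ratio of 3.04. With 1 TSS per gene the share was 11.9%, the DRE ratio 2.10, the Motif 1 core ratio 1.23 and the Motif 7 ratio 1.96, and with TSSs of all gene types the share was 15.4%, the DRE ratio 2.93 and the Motif 1 core ratio 2.62. The less strict list gave 60.3% found in both replicates, and an overlap of at least 50% of both peaks gave 55.1%. A motif window of 50 bp gave a Motif 1 core ratio of 1.68 and a Motif 7 ratio of 2.02. A wider or narrower TSS window changes which peaks are members; the cause of the other changes was not tested. The Motif 7 and central-summit ratios, and the list without overlapped peaks, which moved none of the 9 results it was run for beyond its spread, were chosen after seeing the data. No paired analysis was possible because the 2 samples form 1 group.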

Other observations

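Some other promoter peaks would be divergent if genes of all types were counted. Of the 1422, 65 (4.57%) lay within 500 bp of a head-to-head start site of a gene that does not code for protein, 41 of them a non-coding RNA gene, 14 a transposable element, 5 a pseudogene and 5 a tRNA gene. Their median series signal was 118. The less strict series list held 791 divergent promoter peaks, with 93 pairs that the main list lacked and without 27 pairs that it held. The median signal at the added pairs was 74.6 in that list.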
